A study of Rattus norvegicus with 6 samples.

Results

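The genes examined were neuregulin-1 and its relatives among the EGF-like growth factors (Nrg1, Hbegf, Ereg, Areg and Btc), the 4 ErbB receptors (Egfr, Erbb2, Erbb3 and Erbb4) and the receptor inhibitor Errfi1. They were found in the deposited tables by gene symbol, which gave 10 rows, and rows that the authors had added for transcripts outside the annotation (unannotated rows) were included where they overlapped one of these genes on its strand, which gave 3 more. These 13 rows were part of 43035 rows, and 10 of them held enough counts to be tested among 15513 features. RNA-seq was performed on primary cardiomyocytes from the hearts of newborn Sprague-Dawley rats (postnatal day 1 in the labels), grown in medium with fetal bovine serum. Cells received a scrambled siRNA (si-NC, 3 libraries) or an siRNA against DYRK1A, a protein kinase (si-DYRK1A, 3 libraries), and RNA was collected 48 h later. Such small interfering RNAs are designed to degrade the mRNA whose sequence they match. Both groups thus went through the same procedures of isolation, serum culture and transfection, and no untransfected cells were included. Whether any libraries shared a batch of isolated cells is unknown. The siRNA sequence is not given in the sources used here, and the cells came from enzyme-digested hearts. Per the methods, cells that attached early were left behind and those still in suspension were plated, a step meant to deplete cells other than cardiomyocytes.

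ErbB receptors are tyrosine kinases at the cell surface that pair up when an EGF-like ligand binds. Egfr binds ligands such as amphiregulin and Hbegf, Erbb3 and Erbb4 bind neuregulins, and Erbb2 binds no ligand of its own but is the preferred partner of the others. In the heart, neuregulin-1 is known mainly as a signal from endothelial and endocardial cells that acts on Erbb4 and Erbb2 of cardiomyocytes, where the pathway takes part in trabeculation, growth and survival.

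The libraries held 10325074 to 11921772 counts, and 3 counts corresponded to 0.251 to 0.288 CPM, which are counts scaled to a common library size. Libraries of one group correlated at 0.984 to 0.988 (Pearson's r of log2 CPM across features, which are not independent replicates) and differed beyond sampling noise, so none was a copy of another. Dyrk1a counts showed no fall in the libraries labelled si-DYRK1A, so they did not bear out the labels. Its annotated row held 7 counts over all 6 libraries and was not tested. The unannotated row over it held 5430 counts. It stood at 74.5, 77.7 and 80.9 CPM in the si-NC libraries and at 85.4, 80.1 and 81.7 CPM in those labelled si-DYRK1A. The interval of the difference left little room for a fall (log2 fold change 0.084, SE 0.0575, 95% confidence interval -0.035 to 0.204, adjusted p = 0.374, edgeR). Why no fall was seen in this row was not tested. The study also followed DYRK1A protein by immunoblot in such cells, which was not analysed here, and "si-DYRK1A" below means the libraries labelled so.

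Of the 10 rows tested, 2 passed the test (adjusted p below 0.05, quasi-likelihood test of edgeR), while 15.2% of all features did. The unannotated row over Nrg1 rose (8.03% of all features passed in that direction) and Erbb4 fell (7.19% passed in that direction). These were also the only 2 of the 10 rows whose groups did not overlap in CPM, which 31.5% of all features did not. The other 8 rows lay between -0.23 and 0.38 on the log2 scale and did not pass. The median over the 10 rows was 0.074, against 0.002 over all features tested.

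Where the reads of a gene were counted decided what could be read for Nrg1, Egfr and Errfi1. Nrg1 is annotated on the plus strand of chromosome 16 (63837216 to 64057434, Rnor_6.0), and the unannotated row over it (63880425 to 64065010) covered 80.4% of the gene. The authors assigned an immunoglobulin I-set domain and the neuregulin family to that row, and it held 96.7% of the counts of the locus. Egfr (chromosome 14, 99919485 to 100098796, plus strand) had 0 counts in every library, and an unannotated row covering all of it, with the receptor L, furin-like and tyrosine kinase domains of that receptor, held 4785 counts over the 6 libraries. Errfi1 (chromosome 5, 167952728 to 167966009, plus strand) shared its exact span with an unannotated row that the authors described as Mig-6, the protein that Errfi1 encodes. These had 2 and 0 counts in all, which limits what these tables can say of this feedback inhibitor of ErbB kinases, and neither row was tested. How overlapping gene models were counted is not stated in the sources used here, so counts of 0 under an unannotated row were not read as absence of the mRNA.

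**Figure D1:**
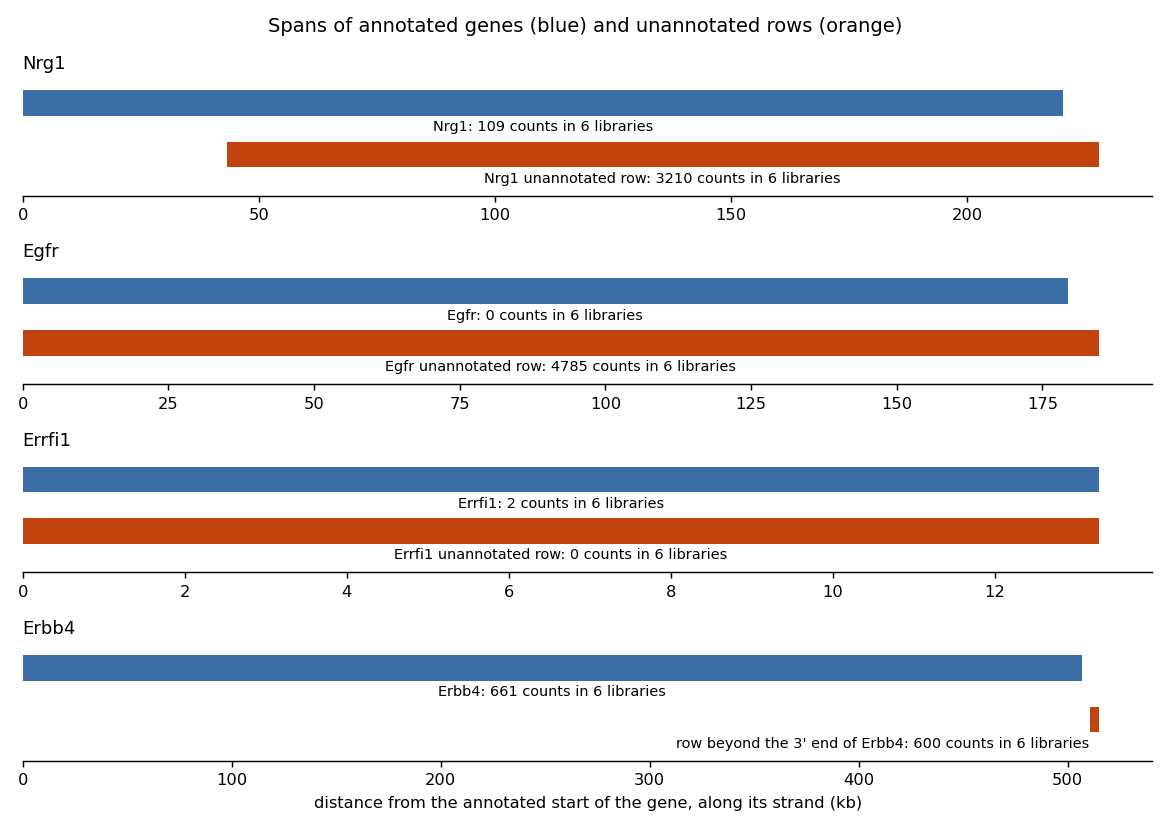
Spans of the annotated genes (blue) and of unannotated rows (orange) for Nrg1, Egfr, Errfi1 and Erbb4, in kilobases from the annotated start of each gene along its strand, with the counts summed over 6 libraries. The unannotated rows over Nrg1 and Egfr held 3210 and 4785 counts against 109 and 0 in the annotated rows, both models of Errfi1 were nearly empty, and Erbb4 had no unannotated row on its strand within its span.

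Among the 5 ligand genes examined here (Nrg1, Hbegf, Ereg, Areg and Btc), neuregulin-1 was the one with a row that passed the test. The unannotated row over Nrg1 held 360, 425 and 419 counts with si-NC and 719, 580 and 707 counts with si-DYRK1A. After normalization these were 34.5, 35.9 and 35.0 CPM against 63.2, 54.6 and 61.2 CPM. Every si-DYRK1A library was above every si-NC library, and the 3 si-NC libraries lay close together. Mean levels were 35.2 ± 0.72 and 59.7 ± 4.5 CPM (SD, n = 3), a 1.7-fold difference (log2 fold change 0.76, SE 0.0743, 95% confidence interval 0.61 to 0.92, adjusted p = 2.9e-07, edgeR). An exact two-sided permutation test over the 6 libraries gave p = 0.1, the smallest that 3 against 3 can give. In these bulk samples, a change in the number of cells of a type and a change in RNA per cell cannot be told apart.

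The annotated Nrg1 row itself (ENSRNOG00000010392) held 16, 16 and 16 counts with si-NC and 17, 26 and 18 with si-DYRK1A. Its CPM overlapped between groups, at 1.41 ± 0.109 against 1.83 ± 0.533, and the interval of the difference was wide (log2 fold change 0.38, 95% confidence interval -0.33 to 1.08, adjusted p = 0.52, edgeR). The row is too shallow to show a difference of the size seen in the unannotated row. With both rows added, the locus stood at 36.6 ± 0.644 and 61.5 ± 3.98 CPM (log2 fold change 0.75, SE 0.0719, adjusted p = 2.36e-07, edgeR).

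Hbegf, a membrane-anchored ligand of Egfr and Erbb4, had the highest level per length of the family. Its counts were 840, 1008 and 1034 with si-NC and 979, 952 and 1096 with si-DYRK1A, or 84.1 ± 3.12 and 90.2 ± 4.4 CPM. The groups overlapped, and the interval of the difference left room for a change of no more than 0.22 upwards and 0.02 downwards (log2 fold change 0.10, SE 0.0568, adjusted p = 0.266, edgeR).

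Ereg and Areg, which encode epiregulin and amphiregulin and lie close together on the minus strand of chromosome 14 (18576355 to 18591394 and 18521930 to 18531179), were both expressed at moderate levels. Epiregulin binds Egfr and Erbb4, and amphiregulin binds Egfr. Ereg stood at 6.62, 7.78 and 11.4 CPM in the si-NC libraries and at 10.8, 9.79 and 11.3 CPM in the si-DYRK1A libraries. The highest of all 6 values belonged to si-NC replicate 3, and the difference did not pass (log2 fold change 0.30, SE 0.173, adjusted p = 0.279, edgeR). It passed only when that library was left out (log2 fold change 0.55, adjusted p = 0.0318, edgeR), so 1 library decided the call for Ereg.

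Areg stood at 6.23, 9.05 and 6.44 CPM in the si-NC libraries and at 9.59, 7.72 and 9.52 CPM in the si-DYRK1A libraries. Here si-NC replicate 2 reached into the range of the other group. The log2 fold change was 0.30 (SE 0.174, 95% confidence interval -0.06 to 0.66, adjusted p = 0.276, edgeR), and the call did not pass under any alternative tried.

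Btc, which encodes betacellulin, a ligand of Egfr and Erbb4, lies on the plus strand of the same stretch of chromosome 14 (18231860 to 18272484). It was low, with 21 to 44 counts per library, and its groups overlapped at 3.15 ± 0.75 and 2.70 ± 0.653 CPM (log2 fold change -0.23, 95% confidence interval -0.78 to 0.33, adjusted p = 0.643, edgeR). That interval is wide enough to hold a fall as large as that of Erbb4.

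**Figure D2:**
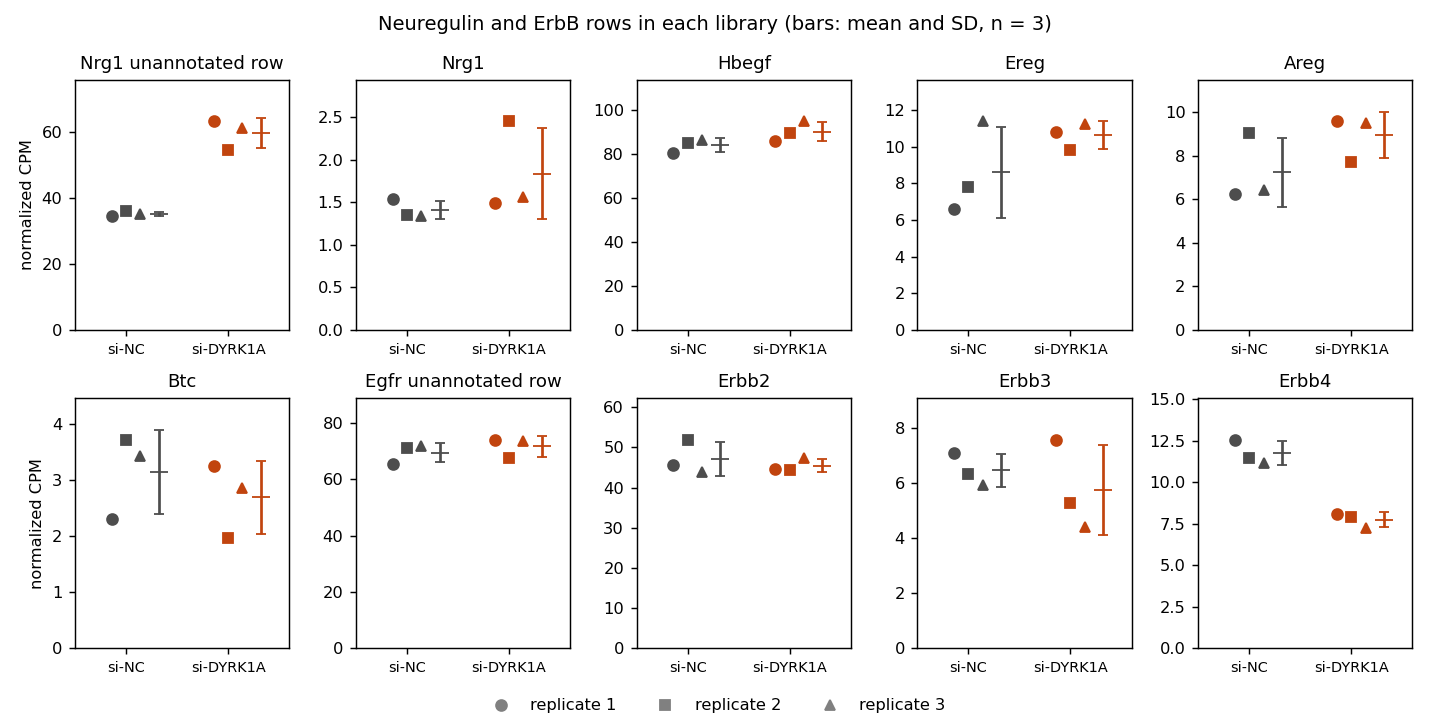
Normalized CPM of the 10 rows tested, in each library (symbols mark the replicate), with the mean and SD of each group of 3. The si-DYRK1A libraries lie above all si-NC libraries for the unannotated row over Nrg1 (54.6 to 63.2 against 34.5 to 35.9) and below them for Erbb4 (7.27 to 8.09 against 11.2 to 12.6), and the groups overlap in the other 8 panels.

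Of the receptors, Erbb4 was the one that passed the test. This receptor binds neuregulins and can signal without a partner of another kind, and in the heart it is found mainly on cardiomyocytes. It is annotated on the minus strand of chromosome 9 (75021790 to 75528644, ENSRNOG00000014248), where 1 other gene overlapped it on the same strand. How reads in that overlap were counted is unknown, and the effect of the overlap on the Erbb4 values was not tested. The counts of Erbb4 were 131, 136 and 134 with si-NC and 92, 84 and 84 with si-DYRK1A. These were 12.6, 11.5 and 11.2 CPM against 8.09, 7.91 and 7.27 CPM, and each si-DYRK1A library lay below each si-NC library. Means were 11.8 ± 0.713 and 7.76 ± 0.432 CPM, 0.661-fold (log2 fold change -0.60, SE 0.14, 95% confidence interval -0.89 to -0.31, adjusted p = 0.00505, edgeR), with an exact permutation p = 0.1. The call held with any 1 library left out (log2 fold change -0.64 to -0.55, adjusted p up to 0.0304, edgeR) and was lost with limma on log2(FPKM + 1) without a filter (log2 fold change -0.43, adjusted p = 0.0617).

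The listed length of Erbb4 was 3796 bases over a span of 506855, and an unannotated row without an assigned strand lay 3728 bases beyond its 3′ end (chromosome 9, 75013786 to 75018061). This row was looked at after its values had been seen, and whether it is part of the Erbb4 transcript was not tested. It held 116, 114 and 132 counts with si-NC and 87, 83 and 68 with si-DYRK1A, or 10.6 ± 0.832 and 7.12 ± 1.07 CPM. The groups did not overlap (log2 fold change -0.57, SE 0.158, adjusted p = 0.0154, edgeR). Its call was lost when either si-NC replicate 1 (adjusted p = 0.0548, edgeR) or si-DYRK1A replicate 3 (adjusted p = 0.0959, edgeR) was left out, and in the 3 fits on FPKM (adjusted p = 0.0864 to 0.144, limma).

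Sequences upstream of the start were matched by symbol in a table taken from RefSeq for 7 of the 10 genes, among them Erbb4. The 223 bases shown end just before the outermost RefSeq start of Erbb4 (assembly GRCr8, chr9:78045634-78045856, minus strand, printed 5′ to 3′). They are given because Erbb4 was the one gene of these 7 that passed the test. Errfi1, also among the 7, was not tested. Capitals mark the complement of the GC box GGGCGG, the letters bound by Sp1 family factors.
Erbb4 upstream: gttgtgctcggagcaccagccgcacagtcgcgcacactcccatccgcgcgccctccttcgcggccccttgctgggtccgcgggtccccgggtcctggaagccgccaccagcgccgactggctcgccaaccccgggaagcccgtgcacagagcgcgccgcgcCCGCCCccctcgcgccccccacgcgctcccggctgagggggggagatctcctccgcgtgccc
This stretch was 77.1% G and C, against a median of 52.0% over 27457 rat upstream sequences of 250 bases, and it held the GC box letters, as 32.1% of those did. The letters CCAAT (34.2% of all), TATAAA (13.2%), TGACGTCA (the cyclic AMP response element, 1.68%), TGANTCA (AP-1, 6.41%) and GCGTGGGCG (Egr1, 0.514%) were also searched on both strands and were not in this window. The other genes of the 7 were also above that median, from 54.4% G and C for Areg to 70.0% for Erbb2. The GC box letters were also upstream of Areg, Btc, Egfr and Errfi1, but not of Hbegf or in the trimmed stretch of Erbb2. These traits were thus not particular to Erbb4. No binding was measured in these samples.

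The remaining receptors did not pass the test. Egfr, read from its unannotated row, stood at 65.5, 71.0 and 71.6 CPM in the si-NC libraries and at 73.9, 67.4 and 73.7 CPM in the si-DYRK1A libraries. The groups overlapped and the interval was narrow (log2 fold change 0.05, SE 0.0629, 95% confidence interval -0.08 to 0.18, adjusted p = 0.689, edgeR).

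Erbb2, the partner receptor without a ligand (chromosome 10, 86367596 to 86391728, plus strand), stood at 45.6, 51.8 and 44.0 CPM in the si-NC libraries and at 44.7, 44.4 and 47.3 CPM in the si-DYRK1A libraries. Its highest value was that of si-NC replicate 2, and the interval of the difference ran from -0.21 to 0.11 (log2 fold change -0.05, SE 0.0763, adjusted p = 0.72, edgeR). This interval did not overlap that of Erbb4.

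Erbb3, which binds neuregulins but has little kinase activity of its own (chromosome 7, 2989340 to 3010350, minus strand), held 74, 75 and 71 counts with si-NC and 86, 56 and 51 with si-DYRK1A. The si-DYRK1A libraries spread over both sides of the si-NC libraries, at 5.75 ± 1.63 against 6.46 ± 0.588 CPM. The log2 fold change was -0.16 (SE 0.2, 95% confidence interval -0.58 to 0.25, adjusted p = 0.653, edgeR). This interval is wide and overlapped that of Erbb4.

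**Figure D3:**
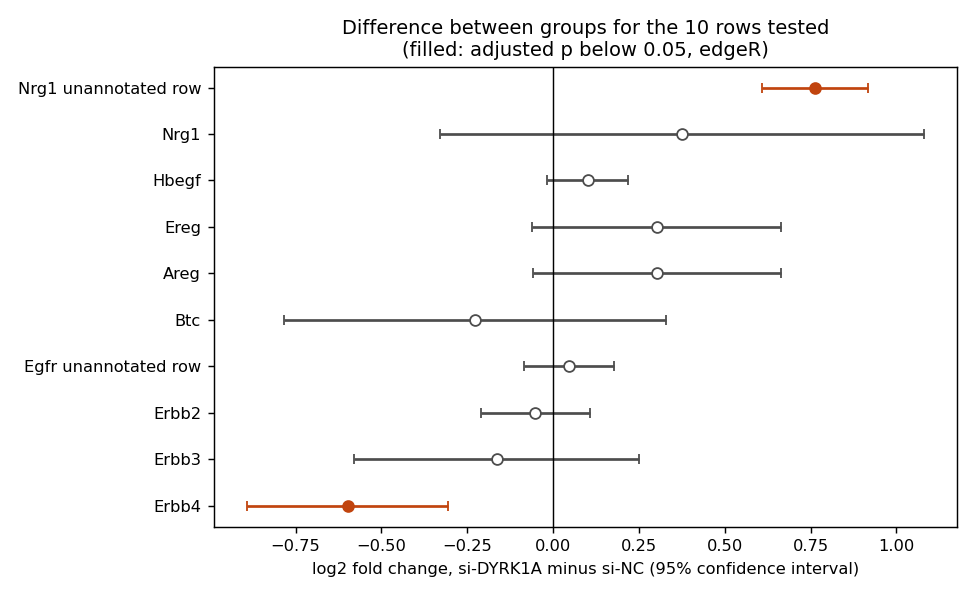
Log2 fold change, si-DYRK1A minus si-NC, of the 10 rows tested with its 95% confidence interval (edgeR, 3 libraries per group, filled where the adjusted p was below 0.05). The intervals of the unannotated row over Nrg1 (0.61 to 0.92) and of Erbb4 (-0.89 to -0.31) lie away from 0, and those of Hbegf, Egfr and Erbb2 are narrow around it.

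Levels of different genes were compared as FPKM, in which counts are divided by the length of the gene. Hbegf was the highest of the family, with a mean FPKM of 37.5 over the 6 libraries (34.6 to 40.7), above 85.7% of the features tested. Erbb2 followed at 9.68 (9.22 to 10.9), and neither overlapped its neighbours in the order. Areg at 7.04 (5.42 to 8.33) and the Egfr unannotated row at 6.99 (6.49 to 7.31) overlapped each other. Ereg at 4.54 (3.12 to 5.39) and the Nrg1 unannotated row at 4.26 (3.1 to 5.67) also overlapped, and the latter reached into the range of Erbb4, at 2.55 (1.9 to 3.28). These means join both groups, and by group the order of the means differed. With si-NC the Nrg1 row stood at 3.17 ± 0.0747 FPKM. Its mean was below that of Ereg, at 4.07 ± 1.18, though their ranges overlapped, and it stood beside Erbb4, at 3.08 ± 0.179. With si-DYRK1A it stood at 5.36 ± 0.4, beside Ereg at 5.01 ± 0.349 and apart from Erbb4 at 2.02 ± 0.114. Btc at 1.18 and Erbb3 at 1.02 overlapped at the low end, and the annotated Nrg1 row was lowest of the 10 rows tested, at 0.304. The length listed for an unannotated row is the authors' and may not match the transcript in use, so its place in this order is less sure than that of the annotated genes.

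The makeup of the 4 receptors was then followed in each library as a share of their summed FPKM. Erbb4 made up 16, 13.7 and 14.5% in the si-NC libraries and 10.5, 10.9 and 9.57% in the si-DYRK1A libraries, without overlap (14.7 ± 1.18% against 10.3 ± 0.699%, exact permutation p = 0.1, the smallest possible). The FPKM of Erbb2 was 2.9, 3.61 and 3.14 times that of Erbb4 in the si-NC libraries and 4.42, 4.49 and 5.21 times in the si-DYRK1A libraries, again without overlap. The share of Egfr was 33 ± 1.87% against 36.2 ± 0.773% and also did not overlap, while its CPM did. Shares add up to a whole, so a lower share of Erbb4 raises the others. Erbb2 held 47.1 ± 2.03% and 48.5 ± 1.71%, and Erbb3 held 5.18 ± 0.532% and 4.9 ± 1.31%, with overlap for both.

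**Figure D4:**
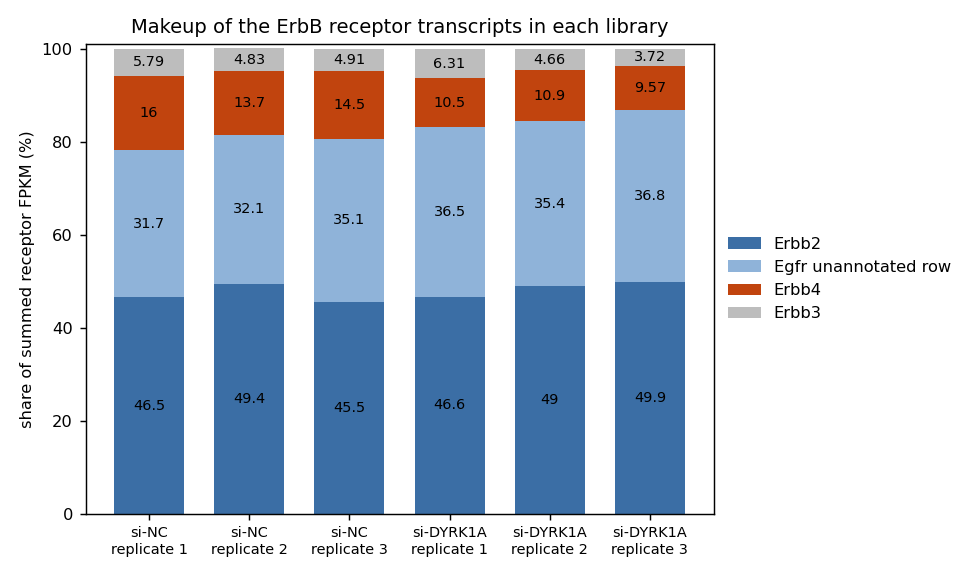
Share of each receptor in the summed FPKM of Erbb2, Egfr (unannotated row), Erbb4 and Erbb3 in each library, in percent. The Erbb4 segment is 13.7 to 16% in the si-NC libraries and 9.57 to 10.9% in the si-DYRK1A libraries.

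Other genes of the pathway were taken from a list of 67 genes in 7 groups, all of which were found in the table. Only 28 had enough counts in their annotated row to be tested, and 34 of the other 39 lay under an unannotated row. Of the 28, 2 rose and 3 fell, so 5 of 28 passed beside 15.2% of all features, and the median log2 fold change was -0.045.

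Tgfa, which encodes the Egfr ligand TGF-alpha, rose from 23.1 ± 1.49 to 29.2 ± 0.483 CPM (log2 fold change 0.34, SE 0.0881, adjusted p = 0.0107, edgeR). This call was lost without si-NC replicate 1 (adjusted p = 0.0595, edgeR) and with DESeq2 (adjusted p = 0.0523). The 5 other ligands of the list were at the edge of detection and not tested, with 47 counts in all libraries for Nrg2, 40 for Egf, 27 for Nrg4, 16 for Nrg3 and 11 for Epgn. None of these 5 lay under an unannotated row.

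Ligands of this family are made as membrane proteins and are cut free by ADAM proteases. Adam19, a protease that can cut neuregulin, rose from 795 ± 33.8 to 1100 ± 24 CPM (log2 fold change 0.46, SE 0.042, adjusted p = 9.68e-08, edgeR). Adam17, the main sheddase of TGF-alpha, amphiregulin and Hbegf, fell from 196 ± 2.7 to 168 ± 6.07 CPM (log2 fold change -0.22, SE 0.0461, adjusted p = 0.00191, edgeR). Both calls held with each library left out in turn.

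Behind the receptors, Sos1, the exchange factor that loads Ras, fell from 106 ± 2.7 to 94.4 ± 3.18 CPM (log2 fold change -0.16, adjusted p = 0.0358, edgeR). Leaving out the first or the second si-NC replicate (adjusted p = 0.0805 and 0.0998) or the second or the third si-DYRK1A replicate (adjusted p = 0.175 and 0.133) ended this call in edgeR, as did DESeq2 (0.0973) and limma-voom (0.0591). Stat5a, a transcription factor that Erbb4 can activate, fell from 34.5 ± 2.18 to 26.8 ± 1.74 CPM (log2 fold change -0.36, SE 0.0863, adjusted p = 0.00544, edgeR), and its call held with each library left out.

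Grb2, the adaptor that links receptors to Sos1, differed by -0.04 (adjusted p = 0.693, edgeR). Hras, which encodes a Ras protein, differed by 0.13 (adjusted p = 0.0975, edgeR). In the PI3K chain, the catalytic subunit Pik3ca differed by -0.06 (adjusted p = 0.564, edgeR). None of the 7 tested genes of receptor turnover and inhibition passed, Cbl with -0.20 (adjusted p = 0.116, edgeR) and Socs5 with -0.03 (adjusted p = 0.702, edgeR) among them.

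To reach genes hidden under unannotated rows, the counts of each gene and its unannotated row were added, a step chosen after the data had been seen. With these sums 49 genes of the list could be tested, of which 3 rose and 5 fell, again beside 15.2% of all features (8 of 49). Others stayed untested with their unannotated row added. Among these were Mapk3, Map2k2 and Ptpn11 (0 counts in all libraries each), Map2k1 (2 counts) and Stat3 (1 count), so the sums did not reach the whole pathway. The 3 added calls were Pik3r3, a regulatory subunit of PI3K, which rose from 80.8 ± 4.39 to 100 ± 6.82 CPM (log2 fold change 0.31, adjusted p = 0.00112, edgeR), and Akt2 and Nf1, which fell. Akt2, a kinase downstream of PI3K, went from 118 ± 5.72 to 104 ± 3.99 CPM (log2 fold change -0.19, adjusted p = 0.0163, edgeR). Nf1, which switches Ras off, went from 41.8 ± 2.36 to 35.5 ± 2.32 CPM (log2 fold change -0.24, adjusted p = 0.0468, edgeR). The call for Pik3r3 held with each library left out. Akt2 no longer passed when si-NC replicate 1 was removed (adjusted p = 0.0939, edgeR), nor without the first (adjusted p = 0.0867) or the second (adjusted p = 0.0663) si-DYRK1A replicate. Nf1 still passed only without si-DYRK1A replicate 2 (adjusted p = 0.0444, edgeR) and missed the threshold when any other library was removed (adjusted p = 0.0604 to 0.192, edgeR).

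**Figure D5:**
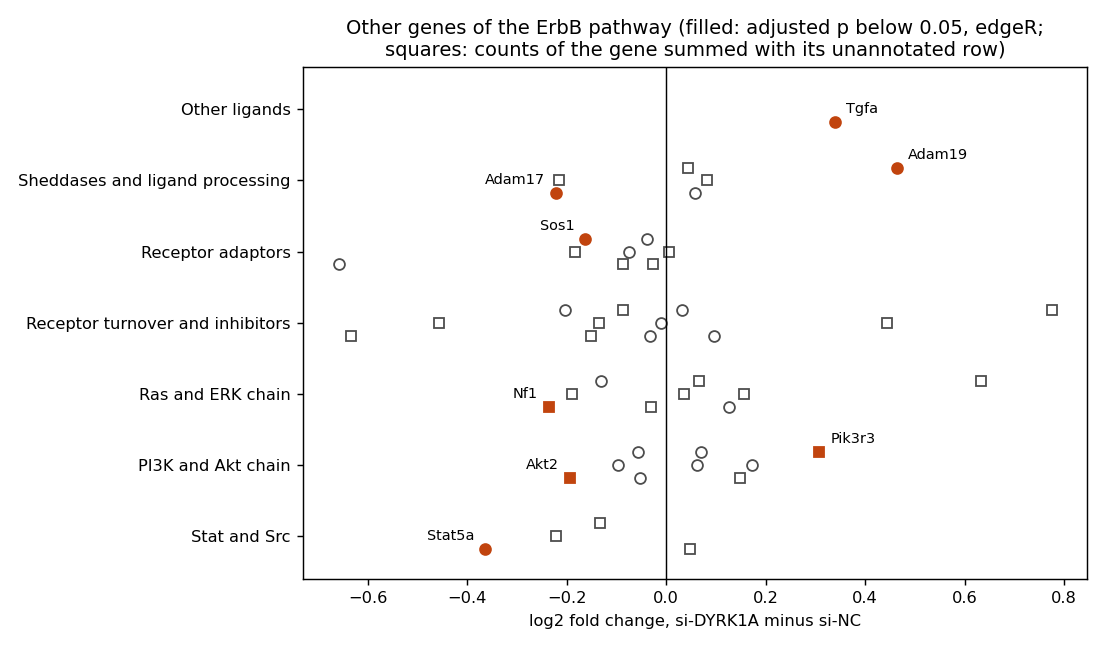
Log2 fold change, si-DYRK1A minus si-NC, of the 49 genes of the pathway list tested after unannotated rows were added to their genes, by group (squares where an unannotated row was added, filled where the adjusted p was below 0.05, edgeR). The 8 filled symbols, 3 to the right and 5 to the left of 0, are spread over 6 of the 7 groups, with none in the group of receptor turnover and inhibitors.

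Markers of cell types of the heart were measured beside Nrg1 and Erbb4. Of 61 markers 57 were found (not Ttn, Pecam1, Col1a2 or Foxd3), and 41 were tested, of which 7 rose and 9 fell. Over all features tested, 8.03% passed as higher and 7.19% as lower, and the groups of 31.5% did not overlap in CPM. Cardiomyocyte markers summed to 18960 to 19670 CPM in the si-NC libraries and 22220 to 23170 CPM in the si-DYRK1A libraries (11 markers, 4 of 5 tested higher). Actn2, a sarcomere protein, rose (1360 ± 84.9 to 1680 ± 33.4 CPM), and Tnnt2 did not pass (log2 fold change -0.14, adjusted p = 0.595, edgeR) and lay under an unannotated row. Nppa, the natriuretic peptide of the atria (7560 ± 371 to 9780 ± 475 CPM), and Actc1, cardiac actin (9980 ± 92.5 to 10900 ± 192 CPM), made up most of the sum, and both rose (log2 fold change 0.37 and 0.13, adjusted p = 3.71e-06 and 0.0193, edgeR). Myh6, Myh7, Tnni3 and Myl2 were listed at 0 under unannotated rows, so the sum rests on the other markers.

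Endothelial markers summed to 188.6 to 208.8 CPM against 158.8 to 166.4 CPM (11 markers, 3 of 8 tested lower), with Cdh5 falling by 0.31 on the log2 scale and Kdr differing by -0.01. Tek and Tie1, receptors of endothelial cells, also fell, by 0.75 (adjusted p = 3.5e-07, edgeR) and 0.43 (adjusted p = 0.00125, edgeR) on the log2 scale. With unannotated rows added to the markers, the same 3 genes were again called lower (log2 fold change -0.31 for Cdh5, -0.75 for Tek and -0.43 for Tie1), while the sums overlapped, at 331 to 342 against 334 to 345 CPM. That sum then included Npr3, listed at 0 without its unannotated row, which rose from 132 ± 5.36 to 173 ± 9.49 CPM (log2 fold change 0.39, adjusted p = 1.65e-05, edgeR). Fibroblast markers summed to 22110 to 26830 CPM against 20920 to 21670 CPM without overlap (8 markers, 2 of 7 tested higher and none lower). The 2 that rose were the matrix genes Lum (260 ± 13.4 to 390 ± 8.71 CPM, log2 fold change 0.59, adjusted p = 1.21e-08, edgeR) and Postn (6.54 ± 0.501 to 14 ± 2.12 CPM, log2 fold change 1.10, adjusted p = 2.39e-05, edgeR). Col1a1, the largest part of the sum, stood at 14300 ± 1920 and 11100 ± 196 CPM and did not pass (log2 fold change -0.37, adjusted p = 0.0869, edgeR). Dcn differed by 0.25 (adjusted p = 0.332, edgeR) and passed with its unannotated row added (log2 fold change 0.44, adjusted p = 0.0397, edgeR), and Pdgfra was listed at 0 under an unannotated row. Smooth muscle markers overlapped at 688.6 to 721.8 and 710 to 729 CPM (7 markers, none of 3 tested passing), but not with unannotated rows added (735 to 763 and 776 to 798 CPM), and macrophage markers at 186.8 to 209 and 177.6 to 206.9 CPM (8 markers, 1 of 7 tested higher), with neither Ptprc nor Csf1r passing.

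The sum of epicardial and mesothelial markers was lower in si-DYRK1A, at 165 to 171.1 against 146.2 to 152.8 CPM (6 markers, 4 of 5 tested lower). Wt1 fell by 0.31 and Upk3b by 0.90 on the log2 scale. Aldh1a2, the largest part of the sum, went the other way and did not pass (73.1 ± 5.76 to 77.8 ± 2.33 CPM, log2 fold change 0.09, adjusted p = 0.39, edgeR). With unannotated rows added, the sums were 208 to 218 against 197 to 200 CPM. Tbx18, listed at 0 without its unannotated row, then differed by 0.14 (adjusted p = 0.261, edgeR). Schwann and neural crest markers were at 35.67 to 38.55 against 26.74 to 31.66 CPM (6 markers, 2 of 6 tested lower), while the defining Sox10 did not pass. The part of these cell types in the differences of Nrg1 and Erbb4 was not tested.

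Finally, the annotated genes whose levels followed these 2 rows most closely over the 6 libraries were listed, as a description. Among 8189 candidates, Pls3 (Pearson's r of log2 CPM 0.998), Vav3 (0.997), Ilf2 (0.997), Aspm (0.996) and Ext1 (0.996) were most like the unannotated row over Nrg1. Sv2a (0.999), Il6r, Cldn15, Vnn1 and Hsdl2 (0.994 each) were most like Erbb4. All 6 points share the contrast between the groups, and 307 and 206 candidates had an r above 0.95 with the unannotated row over Nrg1 and with Erbb4.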

How the data were processed

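RNA-seq of 3 si-NC and 3 si-DYRK1A libraries was analysed, which the labels describe as biological replicates. Per the methods, the authors aligned the read pairs with HISAT2 (build Rnor_6.0), while the submitters' processing notes name Bowtie 0.12.2 and mm8, a mouse build. The files list rat genes. They deposited raw counts per feature and FPKM values, for 32883 annotated and 10152 unannotated rows, the latter with 17.2% to 17.5% of counts. Counter, strand setting and annotation release: not given in the sources used here. Labels name a TruSeq kit and the methods a NEBNext kit.

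Counts were fitted by edgeR 4.0.16 (quasi-likelihood, R 4.3.3, robust, TMM, filterByExpr with a minimum count of 10 and a total of 15), with two-sided p-values adjusted by Benjamini-Hochberg over 15513 features and a threshold of 0.05. CPM values use TMM-scaled library sizes. FPKM values were taken as deposited, and their alternatives used limma 3.58.1 with a pseudocount of 1 or 0.1 and an FPKM above 0.5 in at least 3 libraries. Other alternatives were DESeq2 1.42.0, limma-voom, RLE, upper-quartile or no scaling, no filter, at least 10 counts in every library, an adjusted p below 0.01, each library left out, a replicate block, and sums of a gene and its unannotated row (for pathway and marker genes, an unannotated row covering at least 50% of the gene). The scripts were tested on simulated data. Exact permutation tests of log2 CPM were two-sided. Genes and lists were chosen with earlier results of these data known. Named were all 13 rows, pathway genes that passed with some that did not as a contrast, the defining cell type markers, and the 5 annotated genes most alike (mean log2 CPM of 1 or more). Some single genes of the lists are named nowhere here. The markers Tek, Tie1, Npr3, Lum, Postn, Nppa, Actc1, Aldh1a2 and Tbx18 were named after their values were seen. So were the untested pathway genes Mapk3, Map2k1, Map2k2, Ptpn11 and Stat3. The row beyond Erbb4 and the sums for list genes were chosen after seeing the data. Upstream sequences are the 250 bases before each start in RefSeq (GRCr8), trimmed to end before the outermost start of the gene (Erbb4 and Erbb2), and were matched by symbol. Floors in CPM cover counting error only, while the confidence intervals come from the edgeR fit and include the spread between libraries that it estimated.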

Additional observations from a re-analysis of the deposited data

How the results depend on the processing

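Of all features, 2360 were called by edgeR, 1571 by DESeq2, 1199 and 1180 by limma on log2(FPKM + 1) and log2(FPKM + 0.1), 591 by the former without a filter, and 1307 at an adjusted p below 0.01, and 1614 to 2210 with 1 library left out. Of the 10 rows tested, 2 were called throughout, except 1 with limma on log2(FPKM + 1) without a filter, where Erbb4 was lost, and 3 without si-NC replicate 3, where Ereg was added (2 to 3 with 1 library left out). The log2 fold change of the unannotated row over Nrg1 ranged from 0.61 to 0.82 and that of Erbb4 from -0.64 to -0.43. Erbb2 turned to 0.0205 without si-NC replicate 2 (adjusted p = 0.91, edgeR; -0.108 to 0.0205 with 1 library left out), with no call either way. Annotated Nrg1 passed only when its unannotated row was added. Of the pathway genes, 5 were called, 3 by DESeq2, 8 with unannotated rows added, and 3 to 6 with 1 library left out (3 without si-NC replicate 1). Of the markers, 16 were called, 19 with unannotated rows added, and 11 to 17 with 1 library left out. With library size only, the median of all features moved to -0.024 and 44.3% of calls were higher, against 52.8%. Libraries with the same replicate number did not deviate together (r of 0.058, -0.026 and -0.004). Whether they came from the same isolation is not given in the sources used here, and these correlations cannot tell. The fit with the replicate block called 2269 features and the same count of 2 of the 10 rows. Depth limits Btc, Erbb3 and annotated Nrg1, whose intervals are wide, and Errfi1 could not be measured.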
